A study of Capra hircus with 20 samples.

Results

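Of the 20587 genes in the deposited mRNA table of this goat adipocyte study, 10 were examined: the creatine kinases CKM and CKB, the muscle glycogen phosphorylase PYGM, the glycolytic enzymes PFKM, PGAM2 and ENO3, the AMP deaminase AMPD1, myoglobin (MB) and the lactate dehydrogenases LDHA and LDHB. They were chosen by symbol, with earlier results of these data known. The values of their 20 transcripts, of 43766 in the table, were summed per gene. LDHA was listed under an older symbol, LDH-A. CKM, PYGM, PGAM2, ENO3, PFKM, AMPD1 and MB were treated as muscle-type genes, and CKB, LDHA and LDHB as the general ones. Preadipocytes were isolated from the longissimus dorsi muscle (intramuscular, IMPA) and from the subcutaneous fat (SPA) of male Jianzhou Daer goats aged 7 days and were used at passage 3. IMPA and SPA were collected at day 0. The adipocytes, intramuscular (IMA) and subcutaneous (SA), were collected once the cells had been induced with oleic acid for 3 days. Each of the 4 groups held 5 libraries from 5 goats in all, and the labels do not say which goat gave which library, so that p-values measure the spread between these libraries. These were primary cultures, isolated without a sort for a cell surface marker as far as the methods state.

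Skeletal muscle fibres keep a set of their own isoforms for rapid energy supply. Creatine kinase moves phosphate between creatine and ATP, muscle phosphorylase releases glucose units from glycogen, and phosphofructokinase, phosphoglycerate mutase and enolase carry them down glycolysis. AMP deaminase opens the purine nucleotide cycle, myoglobin binds oxygen, and lactate dehydrogenase converts pyruvate and lactate. The muscle isoforms appear during the maturation of myotubes, whereas most other cells, fat cells among them, use the liver, brain or ubiquitous isoforms of the same enzymes.

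Values are FPKM, fragments scaled by the length of the transcript and by the mapped reads of the library, so that levels can be compared between genes. Summed over all mRNAs, a library held from 373889 to 413880 FPKM. The steps between low values gave a relative depth of 0.727 to 1 in IMPA, 0.536 to 0.697 in IMA, 0.507 to 0.678 in SPA and 0.435 to 0.574 in SA, against the deepest library, and absolute read numbers behind a value are unknown. The labelled cell type was checked against markers. Of 8 fat cell markers, ADIPOQ, PLIN1 and LEP, which define mature fat cells, had group means under 1 FPKM in all 4 groups, and LEP was at 0 in every SA library. FABP4 had means of 60.2 FPKM in IMPA, 35.5 FPKM in IMA and under 1 FPKM in SPA and SA, CIDEC of 4.65 FPKM in SPA and 4.35 FPKM in SA, and CEBPA of 3.91 to 9.23 FPKM over the 4 groups. LPL had means of 0.549 FPKM in SPA and 1.34 FPKM in SA, without overlap, and of 1.02 FPKM in IMPA and 0.941 FPKM in IMA. PPARG had means of 0.624 FPKM in SPA and 1.03 FPKM in SA, with overlap, and of 0.475 FPKM in IMPA and 0.364 FPKM in IMA. The 8 summed to between 56.6 and 85.5 FPKM in IMPA, 39.9 and 46.96 FPKM in IMA, 11.06 and 12.1 FPKM in SPA and 9.90 and 12.4 FPKM in SA. The 6 markers of preadipocytes and stroma, PDGFRA and COL1A1 among them, summed to between 349.7 and 463 FPKM in IMPA, 334 and 405 FPKM in IMA, 849 and 987 FPKM in SPA and 584 and 787 FPKM in SA. Of the 6, 4 had means of at least 1 FPKM in each group. DLK1 had group means of 0.0114 to 0.157 FPKM and CD34 of 0.297 to 0.449 FPKM. The 6 matched markers of the muscle fibre (ACTA1, MYH8, TNNT3, MYLPF, TTN, RYR1) summed to between 1315 and 1500 FPKM in IMPA and between 6007 and 6436 FPKM in IMA. In SPA and SA they summed to between 5.68 and 15.2 FPKM. The 7 markers of myoblasts and satellite cells summed to between 1234 and 1470 FPKM in IMPA, between 2466 and 2744 FPKM in IMA and at most 3.70 FPKM in SPA and SA. Most of that difference was DES, the desmin of muscle filaments, with means of 573 FPKM in IMPA and 1743 FPKM in IMA. MYOD1 had lower values in IMA without overlap (means of 43.2 and 26.1 FPKM), as did CDH15 (29.1 and 19.4 FPKM), while MYOG, PAX7, MYF5 and MYMK overlapped between the stages. SPA1 stood apart from the other SPA libraries with a fibre sum of 15.2 FPKM and a myoblast sum of 3.70 FPKM, where the other SPA libraries did not exceed 6.74 and 1.19 FPKM. In bulk RNA, fewer cells of a type and less RNA per cell cannot be told apart.

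All 7 muscle-type genes were higher in IMA than in IMPA, by between 2.04-fold (PFKM) and 9.22-fold (AMPD1) in mean FPKM. None of them was called higher in SA than in SPA, where 5 of the 7 stayed under 1 FPKM in both groups. The general genes changed less. LDHA rose and LDHB fell in the intramuscular cells, and both went the other way in the subcutaneous cells. With each library's share of mapped reads as a covariate, neither of these intramuscular differences was called. Nor was that of PFKM (0.61, adjusted p = 0.0696, limma). The other muscle-type genes were still called higher in IMA, PYGM at an adjusted p of 0.0485 (limma).

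**Figure D1:**
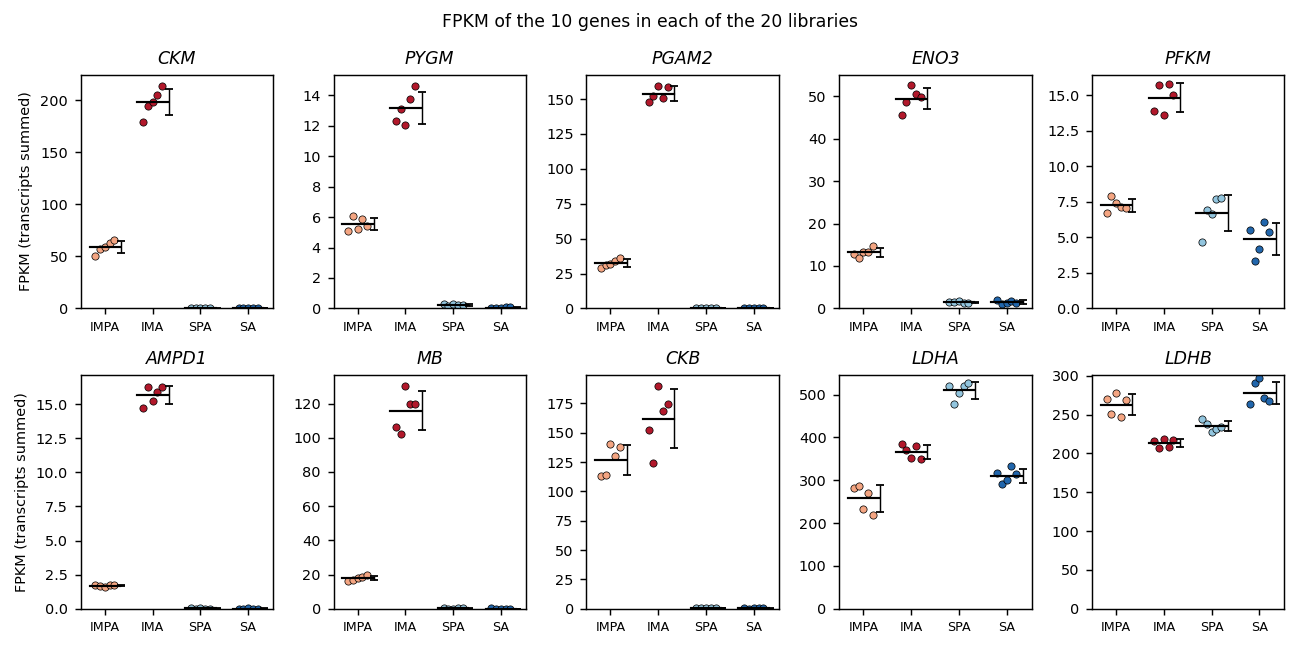
FPKM (linear axes, each from 0, transcripts summed) of the 10 genes in the 20 libraries, 5 per group, with the mean as a horizontal line and 1 SD as a bar. The muscle-type genes stood highest in the 5 IMA libraries, with CKM at a mean of 198 FPKM in IMA and 58.9 FPKM in IMPA, while CKM, PYGM, PGAM2, AMPD1, MB and CKB lay on the axis in SPA and SA.

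CKM, the muscle creatine kinase (NCBI gene 102170262), was at 50.2, 57.02, 58.9, 63.0 and 65.5 FPKM in IMPA1 to IMPA5. In IMA1 to IMA5 it was at 179.7, 195, 198, 205.5 and 214 FPKM. Every IMA library was above every IMPA library, and the mean went from 58.9 ± 5.90 to 198 ± 12.9 FPKM (SD, n = 5 each), or 3.37-fold. On the log2(FPKM + 1) scale, on which all tests were run and on which differences of low genes are understated, CKM rose by 1.74 ± 0.07 (SE, adjusted p = 1.83e-09, limma). In SPA it was listed at 0.278 FPKM in SPA1, 0.0835 FPKM in SPA2 and 0 in the other 3 libraries, and in SA it was at 0 in all 5. The single highest subcutaneous value was thus in the library with the highest fibre marker sum of its group.

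CKB, the general or brain-type creatine kinase (NCBI gene 106503387), did not share the low start of CKM. It was at 113, 114, 140.5, 129.8 and 137.5 FPKM in IMPA1 to IMPA5 and at 152, 124.5, 189.8, 169 and 174 FPKM in IMA1 to IMA5. The stages overlapped through IMA2, and the rise of 0.34 ± 0.10 had an adjusted p of 0.0138 (limma). CKB was nearly absent from the subcutaneous cells and lay between 0.288 and 0.510 FPKM in SPA and between 0.152 and 0.582 FPKM in SA. These subcutaneous groups overlapped and their difference was -0.0013 ± 0.079 (adjusted p = 0.992, limma). CKMT2, the mitochondrial creatine kinase of striated muscle, was at 8.16 ± 0.825 FPKM in IMPA and 13.99 ± 1.52 FPKM in IMA (SD, n = 5 each), and it did not exceed 0.242 FPKM in any subcutaneous library. CKMT1, the ubiquitous mitochondrial form, stayed at or under 0.0457 FPKM in all 20 libraries.

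PYGM, which starts the breakdown of glycogen in muscle (NCBI gene 102183771), was at 5.08, 6.07, 5.25, 5.84 and 5.44 FPKM in IMPA1 to IMPA5. In IMA1 to IMA5 it was at 12.3, 13.1, 12.1, 13.7 and 14.6 FPKM. The stages did not overlap, and the rise was 2.38-fold, or 1.12 ± 0.06 on the log2 scale (adjusted p = 3.92e-08, limma). In the subcutaneous cells PYGM was a trace: 0.291, 0.182, 0.282, 0.208 and 0.228 FPKM in SPA1 to SPA5, and 0, 0.0373, 0.0348, 0.109 and 0.0722 FPKM in SA1 to SA5. Every SA value was below every SPA value (-0.24 ± 0.04, adjusted p = 0.000263, limma), with both groups under 1 FPKM.

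PFKM, the muscle subunit of the enzyme that commits sugar to glycolysis (NCBI gene 102186091), was the one muscle-type gene that the subcutaneous cells held at a level near that of IMPA. It was at 6.71, 7.95, 7.44, 7.14 and 7.10 FPKM in IMPA1 to IMPA5 and at 13.9, 15.8, 13.6, 15.8 and 15.05 FPKM in IMA1 to IMA5. The stages were separate and the rise was 2.04-fold (0.94 ± 0.06, adjusted p = 7.75e-08, limma). It was not called with the share of mapped reads as a covariate (0.61, adjusted p = 0.0696, limma). SPA1 to SPA5 held 4.65, 6.95, 6.63, 7.72 and 7.75 FPKM, and SA1 to SA5 held 5.52, 3.35, 4.19, 6.07 and 5.40 FPKM. SA lay lower on average but overlapped SPA (-0.39 ± 0.15, adjusted p = 0.0398, limma), and the call was lost when SPA2, SPA3, SPA4, SPA5, SA2 or SA3 was left out, with adjusted p up to 0.0911.

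PGAM2, the muscle phosphoglycerate mutase (NCBI gene 102169807), was at 29.3, 30.9, 31.7, 33.9 and 36.3 FPKM in IMPA1 to IMPA5 and at 148, 152, 159.6, 150.5 and 159 FPKM in IMA1 to IMA5. The 5 IMA values lay far above the 5 IMPA values, a rise of 4.74-fold (2.21 ± 0.05, adjusted p = 3.09e-11, limma). In the subcutaneous cells it lay between 0.141 and 0.676 FPKM in SPA, highest in SPA1, and between 0 and 0.399 FPKM in SA. These groups overlapped (-0.085 ± 0.13, adjusted p = 0.604, limma).

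ENO3, the muscle enolase that acts a step after PGAM2 (NCBI gene 102174691), was at 12.9, 11.8, 13.2, 13.4 and 14.6 FPKM in IMPA1 to IMPA5 and at 45.55, 48.7, 52.5, 50.6 and 49.8 FPKM in IMA1 to IMA5. The stages were separate, with a rise of 3.75-fold (1.83 ± 0.05, adjusted p = 1.53e-10, limma). The subcutaneous cells kept a low level, between 1.22 and 1.67 FPKM in SPA and between 0.980 and 2.03 FPKM in SA, with overlap (0.021 ± 0.10, adjusted p = 0.879, limma). The more abundant of its 2 transcripts alone went the other way there, with a difference of -0.44 and an adjusted p of 0.0438.

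AMPD1, the muscle AMP deaminase (NCBI gene 102188819), rose by the largest factor of the 10 genes. It was at 1.73, 1.67, 1.62, 1.75 and 1.73 FPKM in IMPA1 to IMPA5 and at 14.75, 16.2, 15.3, 15.9 and 16.25 FPKM in IMA1 to IMA5. Both groups were tight and far apart, at 1.70 ± 0.0554 and 15.7 ± 0.657 FPKM (SD, n = 5 each), or 9.22-fold. The difference of 2.63 ± 0.04 had the smallest p of all 11432 genes tested between IMA and IMPA (adjusted p = 3.55e-12, limma). In SPA it was at 0.0810 FPKM in SPA1 and at most 0.0201 FPKM in the others, and in SA it was at 0.0345 FPKM in SA3 and 0 in the other 4 libraries. The difference between SA and SPA was -0.025 ± 0.030 (adjusted p = 0.525, limma).

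MB encodes myoglobin, the oxygen store of heart and skeletal muscle (NCBI gene 100860833). It was at 16.4, 17.1, 18.2, 18.4 and 19.6 FPKM in IMPA1 to IMPA5 and at 106.5, 102, 130.3, 120.0 and 119.8 FPKM in IMA1 to IMA5. The stages did not overlap, and the rise was 6.46-fold (2.62 ± 0.07, adjusted p = 5.51e-11, limma). SPA1 to SPA5 were listed at 0.249, 0.0469, 0.132, 0.223 and 0.220 FPKM, and SA1 to SA5 at 0.171, 0.0492, 0, 0 and 0.0636 FPKM. These traces overlapped (-0.15 ± 0.06, adjusted p = 0.0441, limma), and the call was lost when any single SPA library except SPA2, or any single SA library except SA1, was left out (adjusted p up to 0.0964), as it was without SPA1 and SA5 together (adjusted p = 0.122). CYGB, the globin of fibroblasts and other non-muscle cells, had the reverse distribution, with 2.91 ± 0.422 FPKM in IMPA, 3.42 ± 0.458 in IMA, 37.7 ± 1.09 in SPA and 24.9 ± 1.08 in SA (SD, n = 5 each).

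LDHA, the lactate dehydrogenase subunit that prevails in fast muscle and in many glycolytic cells (NCBI gene 100860870), was abundant in all 20 libraries. It was at 282, 287, 232, 271 and 218 FPKM in IMPA1 to IMPA5 and at 384, 370.0, 351, 381 and 349 FPKM in IMA1 to IMA5. Every IMA library was above every IMPA library, a rise of 1.42-fold (0.51 ± 0.07, adjusted p = 9.24e-05, limma). In the subcutaneous cells the order was the reverse: SPA1 to SPA5 held 521, 477, 505, 520.5 and 528 FPKM, and SA1 to SA5 held 318, 290.4, 300.5, 333 and 314 FPKM. SA was thus 1.64-fold lower than SPA without overlap (-0.71 ± 0.04, adjusted p = 4.57e-08, limma).

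LDHB, the subunit that prevails in heart and in oxidative cells (NCBI gene 102188750), moved less and in the opposite direction to LDHA in both depots. It was at 269.8, 250.4, 278, 248 and 268 FPKM in IMPA1 to IMPA5 and at 216, 207, 218, 208 and 218 FPKM in IMA1 to IMA5, without overlap. It fell by 0.30 on the log2 scale (SE 0.04, adjusted p = 4.50e-05, limma). LDHB was at 245, 238, 228, 232 and 234 FPKM in SPA1 to SPA5, and in SA1 to SA5 at 264, 290.2, 297, 271 and 267 FPKM. Every SA library was above every SPA library (0.24 ± 0.04, adjusted p = 0.000284, limma).

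Between IMA and IMPA, 9 of the 10 genes were higher and 1 was lower at an adjusted p under 0.05 in limma. Of all 11432 genes tested, 60.1% were called in this comparison, 19.9% as higher and 40.2% as lower. The groups did not overlap for 8 of the 10 genes on the higher side and 1 on the lower side, against 14.3% and 29.2% of all genes tested. The median difference of the 10 genes was 1.43, and that of all genes tested was -0.085. Because the 10 genes were chosen with earlier results of these data known, their excess over all genes is no support. Between SA and SPA, 1 of the 10 genes was higher, 4 were lower and 5 were not called, where 52.1% of all genes tested were called, 26.1% as higher and 26% as lower. The groups did not overlap for 1 gene on the higher side and 2 on the lower side, against 19.8% and 19% of all genes tested. CKM, PYGM, PGAM2, AMPD1, MB and CKB were under 1 FPKM in both groups, where log2(FPKM + 1) holds any difference near 0. They passed the filter on low values through the intramuscular libraries alone, so that the subcutaneous counts say little against the share of all genes. The calls of LDHA, LDHB and PYGM held in 10 of 10 fits that left out 1 library, whereas those of PFKM and MB did not, so that between 3 and 5 genes were called. With each library's share of mapped reads as a covariate, LDHA, LDHB and PFKM were called (PFKM at -1.23, adjusted p = 5.58e-05), and PYGM (-0.20, adjusted p = 0.0832) and MB (-0.13, adjusted p = 0.458) were not. That share was higher in every SPA library than in every SA library, so that it cannot be told apart from the stage.

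The stage differences of the depots were compared directly as an interaction over the 20 libraries. All 10 genes were called, 9 with a more positive intramuscular difference and LDHB with a more negative one, where 55.3% of all genes tested were called, 20.7% as higher and 34.6% as lower. CKM, PYGM, PGAM2, AMPD1, MB and CKB were under 1 FPKM in both subcutaneous groups, where log2(FPKM + 1) holds any difference near 0, so that their interaction mostly restates the intramuscular difference and their number is no support. The genes measured in both depots were ENO3, PFKM, LDHA and LDHB. With quantile normalization, the split over all genes was 3027 higher and 3221 lower in place of 2368 and 3951. The interaction was 2.77 ± 0.10 for MB, 2.65 ± 0.06 for AMPD1, 2.30 ± 0.15 for PGAM2, 1.83 ± 0.10 for CKM, 1.81 ± 0.12 for ENO3, 1.35 ± 0.08 for PYGM and 1.33 ± 0.16 for PFKM, with adjusted p between 4.73e-18 and 6.66e-07 (limma). AMPD1 had the smallest p of all genes tested here too. Its subcutaneous values did not exceed 0.0810 FPKM, where log2(FPKM + 1) leaves little spread, so that this rank is no support. For LDHA it was 1.23 ± 0.09 (adjusted p = 1.87e-10) and for LDHB -0.54 ± 0.06 (adjusted p = 5.42e-08). The interaction of CKB, 0.34 ± 0.14 with an adjusted p of 0.0430, was lost when any of 10 single libraries was left out (adjusted p up to 0.0884). With the mapped share as a covariate, 8 of the 10 were called, and PFKM (0.70, adjusted p = 0.163) and LDHB (-0.27, adjusted p = 0.0717) were not. Of all 11432 genes tested, 2045 were called in that fit.

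**Figure D2:**
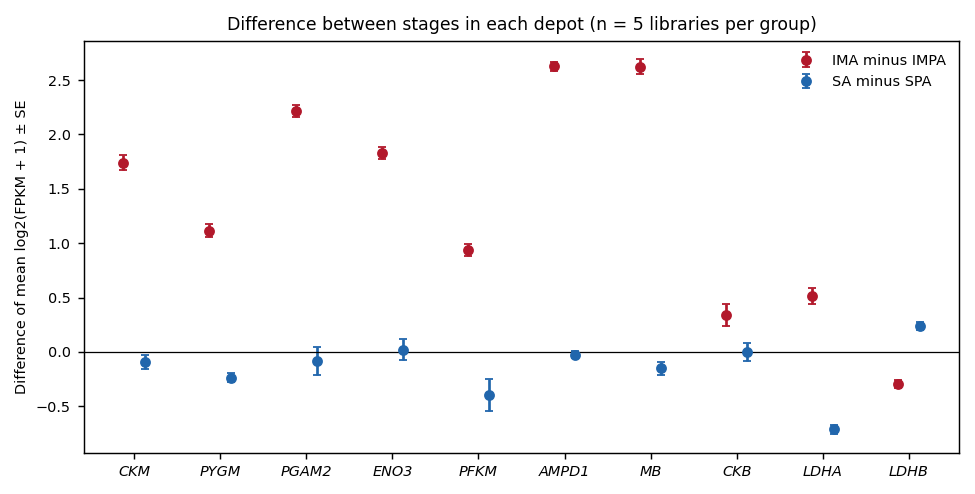
Differences of mean log2(FPKM + 1) between the stages (vertical axis, points, with 1 SE as a bar) for the 10 genes in the intramuscular (IMA minus IMPA) and subcutaneous (SA minus SPA) cells, 5 libraries per group. The 7 muscle-type genes lie between 0.94 and 2.63 in the intramuscular cells and between -0.39 and 0.021 in the subcutaneous cells, and LDHA and LDHB have opposite signs in the depots.

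The rise of the muscle-type genes went along with that of the fibre markers, whose sum was 6007 to 6436 FPKM in IMA and 1315 to 1500 FPKM in IMPA. Among the markers of myoblasts and satellite cells, DES was higher in every IMA library than in every IMPA library, and MYOD1 and CDH15 were lower. The 7 genes themselves summed to between 122 and 150.2 FPKM in IMPA and between 520.5 and 588.5 FPKM in IMA. The part of the markers in the result was not tested. The share of reads that mapped to the genome was higher in every IMPA library than in every IMA library, so that it cannot be told apart from the stage. With it as a covariate, 6 of the 10 genes were called (CKM, PYGM, PGAM2, ENO3, AMPD1 and MB, each still higher). Of all 11432 genes tested, 731 were called in that fit. PYGM lay near the threshold (0.715, adjusted p = 0.0485, limma). PFKM (0.61, adjusted p = 0.0696, limma) and CKB (1.11, adjusted p = 0.0570, limma) were not called. LDHA then had a difference of -0.074 (adjusted p = 0.868, limma) and LDHB of -0.0089 (adjusted p = 0.973, limma).

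Between the depots at day 0, 8 of the 10 genes were higher in IMPA than in SPA and LDHA was lower, where 75.1% of all genes tested were called, 42.3% as higher and 32.9% as lower. The same 9 genes did not overlap between the groups, against 35.9% of all genes tested on the higher side and 27.5% on the lower side. CKM, PYGM, PGAM2, AMPD1, MB and CKB had means under 1 FPKM in both subcutaneous groups and passed the filter on low values through the intramuscular libraries alone, so that they had to differ between the depots and their number is no support. Among the 4 genes measured in both depots, ENO3 was 9.22-fold higher in IMPA than in SPA (2.54 ± 0.06, adjusted p = 1.295e-12, limma) and LDHB 1.12-fold higher (0.16 ± 0.04, adjusted p = 0.00241). LDHA was 1.98-fold lower in IMPA (-0.99 ± 0.07, adjusted p = 6.40e-08), and PFKM overlapped (0.11 ± 0.10, adjusted p = 0.350). The share of mapped reads was higher in every IMPA library than in every SPA library. With it as a covariate, LDHA had a difference of -0.25 (adjusted p = 0.532) and LDHB of -0.21 (adjusted p = 0.315), so that neither was called, while ENO3 was still higher (2.03, adjusted p = 0.000122). After induction, 9 of the 10 genes were higher in IMA than in SA and LDHB was lower, where 72.4% of all genes tested were called, 29% as higher and 43.4% as lower. None of the 10 overlapped between these groups, against 24% of all genes tested separate on the higher side and 34.7% on the lower side. ENO3 was then 33.2-fold and PFKM 3.02-fold higher in IMA than in SA, with adjusted p of 1.44e-14 and 3.21e-08. LDHA was 1.18-fold higher (0.24 ± 0.05, adjusted p = 0.000390) and LDHB 1.302-fold lower (-0.38 ± 0.04, adjusted p = 1.90e-06). The order of the group means of LDHA was therefore SPA, IMA, SA and IMPA, with no overlap between neighbours, and that of LDHB was SA, IMPA, SPA and IMA, with overlap between SA and IMPA.

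The muscle isoform was also set against the other isoforms of its enzyme as a share of their summed FPKM in each library, which does not depend on the library's scale. The share of CKM in CKM and CKB went from 31.7% ± 1.54 in IMPA to 55.3% ± 3.59 in IMA (SD, n = 5 each), so that the muscle form was the larger one in every IMA library and the smaller one in every IMPA library. The share of PGAM2 in the phosphoglycerate mutases went from 10.05% ± 1.07 to 33.8% ± 1.60, and that of AMPD1 in the AMP deaminases from 4.20% ± 0.0841 to 27.8% ± 0.967. PFKM went from 13.3% ± 0.832 to 23.3% ± 2.60 of the phosphofructokinases and PYGM from 9.75% ± 0.649 to 16.1% ± 0.924 of the glycogen phosphorylases. ENO3 rose too but remained a small part of the enolases, with 1.81% ± 0.135 in IMPA and 6.70% ± 0.702 in IMA, since the ubiquitous ENO1 was at 707 and 681 FPKM. For all 6 families the stages did not overlap (two-sided exact permutation test, p = 0.00794, the smallest that 5 libraries against 5 allow, and 0.0101 after Benjamini-Hochberg adjustment over the 28 share tests).

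In the subcutaneous cells the muscle isoforms took at most 0.354% of the glycogen phosphorylases, 0.115% of the phosphoglycerate mutases, 0.224% of the enolases and 0.517% of the AMP deaminases in any library. PFKM held 3.41% ± 0.532 of the phosphofructokinases in SPA and 4.29% ± 0.922 in SA (exact permutation test, p = 0.0952). The creatine kinases summed to under 1 FPKM there, so that their shares carry no information. LDHB, by contrast, moved in opposite directions in the depots. It went from 50.6% ± 3.96 of the lactate dehydrogenases in IMPA to 36.8% ± 1.47 in IMA and from 31.6% ± 1.10 in SPA to 47.2% ± 2.44 in SA, without overlap in either depot (exact permutation test, p = 0.00794 for each). The isoform shares were not fitted with the share of mapped reads as a covariate. In the fits of FPKM with that covariate, neither LDHA nor LDHB was called between IMA and IMPA.

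**Figure D3:**
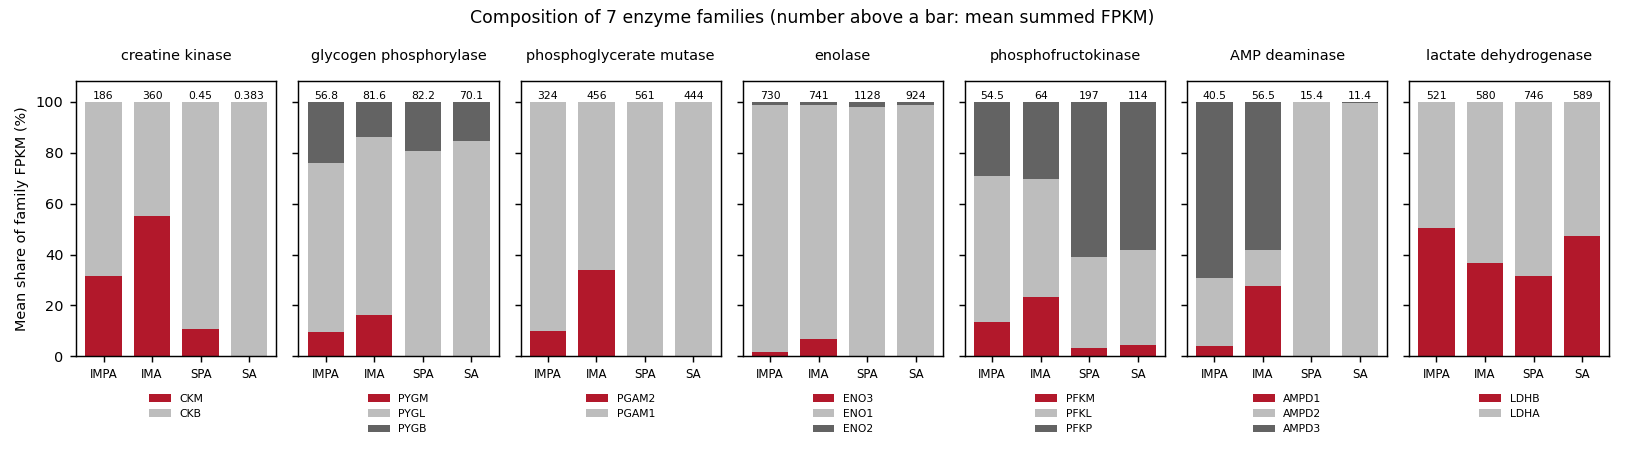
Mean share (%, n = 5 libraries per group) of each isoform in the summed FPKM of 7 enzyme families, with the mean sum above each bar. The isoforms in red, the muscle isoforms and LDHB, grew from IMPA to IMA except LDHB, which went from 50.6% to 36.8%, and in SPA and SA the muscle isoforms of 5 families made up at most 4.29% on average, while the creatine kinases summed to under 1 FPKM.

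The other isoforms of the same families did not follow the muscle ones as a group. Of 12 listed paralogs, CKMT2 and CYGB included, 11 were tested. In IMA against IMPA 4 of the 11 were higher, 2 were lower and 5 were not called, with a median difference of 0.052. Of all genes tested, 60.1% were called there, 19.9% as higher and 40.2% as lower. PYGL, the liver phosphorylase, rose by 0.60 ± 0.05 (adjusted p = 9.09e-07, limma) and PYGB, the brain form, fell by 0.27. PFKP rose by 0.26 and AMPD3 by 0.22, while AMPD2 fell by 0.41. PGAM1, ENO1, ENO2 and PFKL had differences between -0.076 and 0.052 with overlapping groups. AMPD3, the AMP deaminase first known from erythrocytes, stood apart by depot. It was at 28.0 ± 0.926 FPKM in IMPA and 33.0 ± 2.86 FPKM in IMA (SD, n = 5 each) and did not exceed 0.0670 FPKM in the subcutaneous cells, where AMPD2 made up 99.7% of the family in SPA and 99.59% in SA on average.

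In SA against SPA, 9 of the 11 paralogs were lower, none was higher and 2 were not called, where 26% of all genes tested were called lower and 26.1% higher. PFKP, the platelet phosphofructokinase and main form in these cells, fell by 0.84 (SE 0.03, adjusted p = 3.69e-10, limma), from 119.7 ± 3.98 to 66.6 ± 0.716 FPKM (SD, n = 5 each). PFKL fell by 0.71, ENO2 by 0.68, CYGB by 0.58, PYGB by 0.52, AMPD2 by 0.40, PGAM1 by 0.34, ENO1 by 0.28 and PYGL by 0.15. The decrease of LDHA in the subcutaneous adipocytes was thus accompanied by lower levels of the ubiquitous glycolytic isoforms, at ENO1 means of 1106 FPKM in SPA and 909.8 FPKM in SA. With the share of mapped reads as a covariate, ENO1 (-0.19, adjusted p = 0.0583, limma) and PYGL (-0.12, adjusted p = 0.126, limma) were not called. The other paralogs named here as falling were still called lower.

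A further list of 31 genes of the surrounding pathways completed 43 with the paralogs, and 40 of them were tested. In IMA against IMPA 17 of the 40 were higher, 8 were lower and 15 were not called, with a median of 0.12. With the share of mapped reads as covariate, 4 of the 40 were called there, 3 higher and 1 lower, among them ADSS1 (1.202, adjusted p = 0.00507), MPC1 (0.76, adjusted p = 0.0252) and SLC16A7 (-1.47, adjusted p = 0.00456). The other paralogs and pathway genes named as rising or falling in IMA were not called in that fit, and the sign was the opposite for PYGB, ADSS2, ADSL, SLC16A1, SLC16A3 and PFKFB3. In SA against SPA 8 were higher, 23 were lower and 9 were not called, with a median of -0.18, and 6 were higher and 17 lower with the covariate. The calls without the covariate, here and in the groups below, are read against all genes tested. Of these, 19.9% were called higher and 40.2% lower in the intramuscular comparison, and 26.1% and 26% in the subcutaneous one. With the covariate, 731 of 11432 genes tested were called in IMA against IMPA. For the covariate fit of SA against SPA the share over all genes is not given here.

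Of the 11 genes of glycogen metabolism, 5 were higher and 1 was lower in IMA. UGP2, which makes UDP-glucose for glycogen synthesis, rose by 0.56 ± 0.04 (adjusted p = 6.13e-07, limma), PGM1 by 0.26 and the muscle phosphorylase kinase subunit PHKG1 by 0.23, whereas PHKG2, its liver and testis counterpart, fell by 0.36. In the subcutaneous cells 3 of the 11 were higher and 4 were lower, and GYS1, the glycogen synthase of muscle and most other tissues, fell by 0.71 (SE 0.07, adjusted p = 6.37e-06).

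AK1, the cytosolic adenylate kinase that interconverts adenine nucleotides, rose by 1.23 ± 0.10 in IMA (adjusted p = 9.88e-07, limma), from 18.6 ± 2.58 to 44.7 ± 5.28 FPKM (SD, n = 5 each). Unlike the muscle creatine kinases it was abundant in the subcutaneous cells, at 66.5 ± 1.31 FPKM in SPA and 72.2 ± 3.17 FPKM in SA. Of the 4 genes of creatine supply and adenylate kinase, 2 were higher and 1 lower in IMA, and 1 was higher and 2 lower in SA, where GATM, which makes the precursor of creatine, fell by 0.50 (SE 0.08, adjusted p = 0.000144). In the purine nucleotide cycle, ADSS1, the muscle adenylosuccinate synthase, rose by 0.92 ± 0.06 in IMA (adjusted p = 1.62e-07), while ADSS2, the form of other tissues, and ADSL fell by 0.18 and 0.23 with overlap. In SA, ADSS2 rose by 0.35 ± 0.05 (adjusted p = 9.06e-05), ADSL rose by 0.26 with overlap, and ADSS1 was not called. With the share of mapped reads as a covariate, ADSS2 was not called (0.29, adjusted p = 0.0503, limma) and ADSL was (0.52, adjusted p = 0.0052, limma).

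Lactate and pyruvate carriers changed in the same direction in both depots in some cases and not in others. SLC16A3, the lactate exporter of glycolytic cells, rose by 0.91 ± 0.17 in IMA (adjusted p = 0.000713, limma) and fell by 0.85 in SA. SLC16A1 rose by 0.43 in SA and by 0.13 with overlap in IMA. SLC16A7 fell in both, by 0.61 in IMA and by 1.06 in SA (SE 0.05, adjusted p = 2.99e-09). Of the 6 carriers and their partners, 4 were higher and 2 lower in IMA, and 2 were higher and 3 lower in SA. Of the 5 tested genes of glucose entry and its control, 1 was higher in IMA, PFKFB3, a producer of the activator of phosphofructokinase (0.39 ± 0.08, adjusted p = 0.00136, with overlap). All 5 were lower in SA, PFKFB3 by 0.75 (SE 0.07, adjusted p = 1.57e-06), HK2 by 0.59, PFKFB4 by 0.46, HK1 by 0.38 with overlap and SLC2A1 by 0.32. Of all genes tested, 26% were called lower there. PFKFB1 and SLC2A4, the glucose carrier of muscle and fat that responds to insulin, were too low to be tested, SLC2A4 with means of 0.681 FPKM in IMPA, 0.957 FPKM in IMA and under 0.01 FPKM in SPA and SA.

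**Figure D4:**
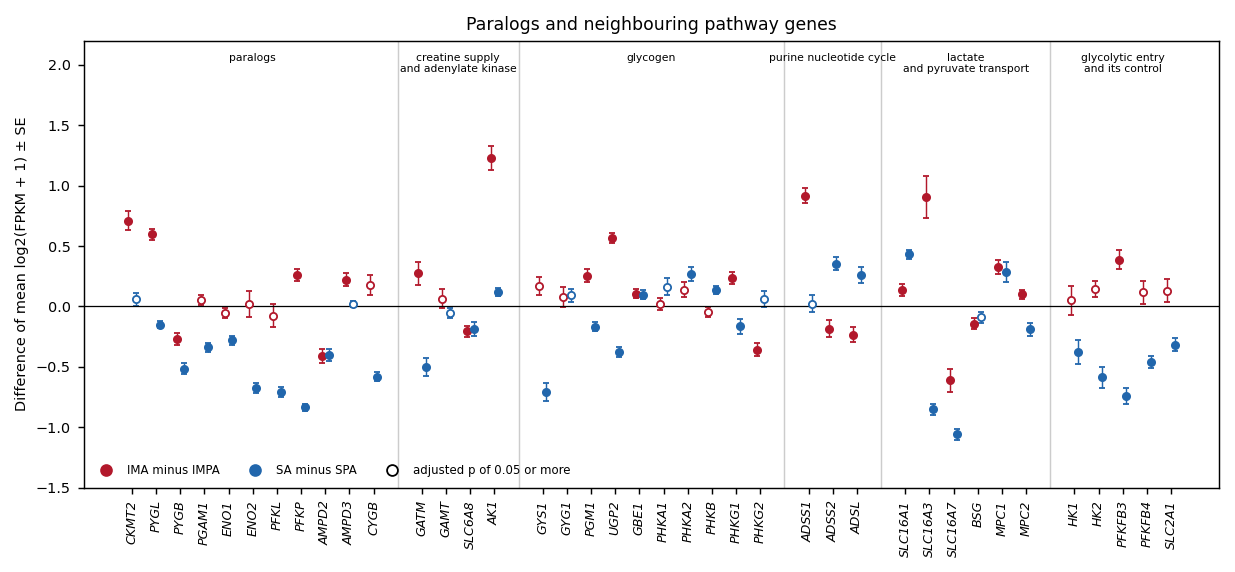
Differences of mean log2(FPKM + 1) between the stages (vertical axis, with 1 SE as a bar) for tested paralogs and pathway genes, in the intramuscular (red) and subcutaneous (blue) cells, 5 libraries per group, with open points where the adjusted p was 0.05 or more. AK1 at 1.23 is the highest intramuscular point shown, and SLC16A7 at -1.06 is the lowest subcutaneous one.

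The genes whose profile over the 20 libraries was most like that of each of the 10 genes were searched among 10405 others, by the root-mean-square difference of z-scored log2(FPKM + 1), in which a smaller value is a closer match and to which the split between the depots contributes for most of the genes. CSRP3, a LIM protein of the muscle Z-disc, was closest to CKM (0.0282), HSPB3 and MYOM1 to MB (0.0345 and 0.0365), and MUSTN1 and NEB, the giant nebulin, to PYGM (0.0470 and 0.0578). TRIM72 and LMOD2 were closest to PGAM2 (0.0495 and 0.0505), ADPRHL1 and EDA2R to ENO3 (0.0725 and 0.0748), TMEM182 and TRDN, triadin of the calcium release complex, to AMPD1 (0.0638 and 0.0678), and LMOD3 was the second match of CKM (0.0306). MID1 and EYA4 were closest to CKB (0.0402 and 0.0411). The matches of PFKM, LDHA and LDHB were looser. They were UBE2H and OTUD7B for PFKM (0.255 and 0.262), BNIP3, a mitophagy receptor, and ARRB1 for LDHA (0.218 and 0.304), and SF3B3 and NPM1 for LDHB (0.241 and 0.266). BNIP3 had means of 43.1 FPKM in IMPA, 70.5 FPKM in IMA, 106 FPKM in SPA and 51.9 FPKM in SA, the same order as LDHA.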

How the data were processed

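The authors aligned paired-end reads of strand-specific libraries to the goat assembly ARS1 with HISAT2 2.0.4 and calculated FPKM per transcript with StringTie 1.3.1 and Ballgown, as deposited. How reads shared by paralogs were assigned is not given in the sources used here. The 2 lncRNA tables were not used here, and the authors' comparisons were not used either.

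Transcripts were summed per symbol, and the 11432 genes averaging 1 FPKM or more across all 20 libraries entered the tests as log2(FPKM + 1) with limma 3.58.1 (variance trend, R 4.3.3), in fits of 10 libraries per comparison and of 20 for the interaction. P values were two-sided and Benjamini-Hochberg adjusted over all genes tested, and a gene was called at an adjusted p under 0.05. Shares were compared by exact permutation over 252 divisions in scipy 1.17.1 (Python 3.11.15, numpy 2.4.6, pandas 2.3.3); matplotlib 3.10.9 drew the figures. The steps were tested on simulated data for the IMA against IMPA comparison, where 88.1% of 67 genes changed by 0.5 (log2) were called, and 6 of 11232 unchanged genes.

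The members and lists were chosen with earlier results of these data known. Named were the 10 genes, their paralogs, the called gene of each pathway group with the largest difference in each stage comparison, and the 2 closest profiles per gene. 1 gene named by this rule is not reported here by itself, although the counts include it. Other pathway genes given with a value (CYGB, UGP2, PGM1, PHKG1, PHKG2, ADSL, SLC16A1, MPC1, HK1, HK2, PFKFB4, SLC2A1, SLC2A4) were chosen after their values were seen, and so was ADSS2 in IMA and SLC16A3 and SLC16A7 outside the comparison that named them. Symbols were matched through RefSeq synonyms (assembly ARS1.2), all 10 genes and 43 of 43 pathway genes were found, and MYH1 and MYH3 of the marker lists were not matched. Alternatives were other minimum values (0.1 FPKM or none), a pseudocount of 0.1 FPKM, upper-quartile and quantile scaling, no variance trend, a block for the replicate number, a covariate for each library's share of mapped reads, the most abundant transcript per gene, all groups in 1 fit, and leaving out libraries.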

Additional observations from a re-analysis of the deposited data

Results flagged for a closer look

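The stage difference of each of the 10 genes differed between the intramuscular and the subcutaneous cells in the interaction test (limma, adjusted p under 0.05 for each), and of 8 with the share of mapped reads as a covariate, where PFKM (0.70, adjusted p = 0.163) and LDHB (-0.27, adjusted p = 0.0717) were not called. Of all genes tested, 55.3% were called in the interaction test, and 2045 of 11432 with the covariate. The values that follow are from the test without it. Intramuscular minus subcutaneous, it was 1.83 for CKM, 1.35 for PYGM, 2.30 for PGAM2, 1.81 for ENO3, 1.33 for PFKM, 2.65 for AMPD1, 2.77 for MB, 0.34 for CKB, 1.23 for LDHA and -0.54 for LDHB on the log2(FPKM + 1) scale. For LDHA and LDHB the depots moved in opposite directions without the covariate, with no overlap between stages in either depot. With the share of mapped reads as a covariate, neither intramuscular difference was called. It was -0.074 for LDHA (adjusted p = 0.868, limma) and -0.0089 for LDHB (adjusted p = 0.973, limma). For CKM, PYGM, PGAM2, AMPD1, MB and CKB the subcutaneous values stayed under 1 FPKM, so that the interaction mostly restates the intramuscular difference.

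In 6 of 68 groups of 5 libraries tested, 1 library lay far from the others (Dixon's ratio above 0.71). Each flagged share was computed from a flagged FPKM value, and those FPKM values were all under 1 FPKM. The flags are therefore not independent, and their number is not set against a chance rate. SPA1 was high for PGAM2 (0.676 FPKM), for AMPD1 (0.0810 FPKM), for the share of PGAM2 in the phosphoglycerate mutases (0.115%) and for that of AMPD1 in the AMP deaminases (0.517%). SPA1 also had the highest sums of muscle fibre and myoblast markers in its group, 15.2 and 3.70 FPKM, and their part in these values was not tested. SA3 was high for AMPD1 (0.0345 FPKM) and for its share (0.331%), where the other 4 SA libraries were at 0, so that any value above 0 would be flagged.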

How the results depend on the processing

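Of 1781 recomputed values, 1710 kept their side of the threshold, and their direction where called, or stayed within 1.5 times the main count. Differences called in neither fit were counted as kept even where their direction changed. A covariate for the share of reads mapped in each library changed the most. It left 6 genes called in IMA against IMPA in place of 10, 3 in SA against SPA in place of 5, and of the pathway list 4 in place of 25 in IMA against IMPA, 16 in place of 37 in IMPA against SPA and 10 in place of 31 in the interaction. Over all genes it left 731 in place of 6867, 2332 in place of 8588 and 2045 in place of 6319. It reversed LDHA in IMA against IMPA (-0.074) and LDHB in IMPA against SPA (-0.21), where LDHA was no longer called (-0.25, adjusted p = 0.532), and the cause was not tested. With the most abundant transcript alone, ENO3 in SA against SPA was reversed (-0.44). Without a filter on low values, where 20024 genes were tested, 3 genes were called in SA against SPA, and leaving out 1 library gave between 3 and 5. Leaving out 1 library, the difference in the CKM share between IMPA and SPA ranged from 18.4 to 27.2 percentage points, with p up to 0.0952 where the main value was 21.1 (exact permutation p = 0.0476, and 0.0580 after Benjamini-Hochberg adjustment). The creatine kinases summed to under 1 FPKM in SPA, so that this difference carries no information. For the share of ENO3 in SA against SPA the range was 0.0194 to 0.0497 and for that of PFKM 0.632 to 1.202, and both passed the threshold without SA2 (exact permutation p = 0.0476 and 0.0317). Groups share replicate numbers, and whether these numbers pair the libraries was not settled. Correlations of same-numbered libraries ran from -0.242 to 0.122 over the 4 comparisons. Between IMA and IMPA they ran from 0.0417 to 0.121, against -0.168 to 0.119 for other numbers. Of 5 libraries, 3 correlated best with their own number there, 1 between SA and SPA, 2 between IMPA and SPA and 0 between IMA and SA. With the replicate number as a block, 10 genes were called in IMA against IMPA, 5 in SA against SPA, 9 in IMPA against SPA, 10 in IMA against SA and 10 in the interaction. A sign-flip test of the shares over 5 pairs was not run, because its smallest p is 0.0625. No median of all genes moved by over 0.1 under another scaling. Read numbers behind single values are unknown, which limits what can be said of values under 1 FPKM.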

Other observations

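The transcripts behind the summed values did not always stay the same between libraries. For AMPD1 the transcript that carried between 98.3% and 99.99% of the FPKM in the IMA libraries carried none in IMPA3, where the other transcript held 1.62 FPKM, although the summed AMPD1 value of IMPA3 was close to those of the other 4 IMPA libraries. For PFKM the second transcript was at 6.48 FPKM in IMA4 and at most 1.42 FPKM in the other IMA libraries. For ENO3 the leading transcript held between 89.5% and 97.3% of the gene's FPKM in the intramuscular libraries, between 53.3% and 100% in SPA and between 3.56% and 50.1% in SA.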
